A study of Mus musculus with 5 samples.

Results

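The E2F transcription factors and their DP partners were described in cells sorted as ciliated cells from the embryonic mouse lung. The members were 10 genes, E2f1 to E2f8, Tfdp1 and Tfdp2, taken by symbol and not by their signal. The choice was made with earlier results of these data known. Each member had at least 1 probe set annotated to that gene alone, 21 probe sets in all. In the whole series 18193 genes had a probe set of their own. The series holds a single group, GFP+ lung cells sorted at E17.5 from FOXJ1-GFP embryos, and its 5 biological replicates were each put on an Affymetrix array. The embryos came from FOXJ1-GFP mice mated with the out-bred ICR strain, and GFP in this line is driven by the FOXJ1 promoter, so the sort selects cells by the activity of that transgene. The labels do not give the litters behind the replicates. The p-values therefore rest on the spread between these 5 arrays, which may be partly technical. No other group was analysed here, so each gene was described by its signal in the sorted cells and not by a change.

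E2F factors bind DNA mostly as dimers with a DP protein and switch genes of DNA synthesis on or off. The pocket proteins, the retinoblastoma protein and its relatives, hold them in check until cyclin-dependent kinases phosphorylate the pocket protein. E2F1, E2F2 and E2F3 activate genes of S phase, whereas E2F7 and E2F8 are atypical repressors that need no DP partner. E2F4 and E2F5 work with pocket proteins in resting cells, and in multiciliated cells they join Multicilin or GemC1 to activate genes of centriole amplification.

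The deposited values are log2 signals, 1 per probe set and array. A level counted as background up to 8.42, the mean below which 95% of 153 genes of other tissues and of the sense organs lay. These were 76 olfactory, vomeronasal and taste receptor genes, none of which was called above the level, and 77 genes restricted to tissues such as liver, retina, muscle and pancreas, of which 8 were. The level is a percentile of these same genes, so that a few of them lie above it by construction. A probe set was called above background where its mean exceeded that level at an adjusted p under 0.05, one-sided, by limma with Benjamini-Hochberg adjustment over 45037 probe sets. A gene was represented by its probe set with the highest mean. A probe's brightness depends partly on its own sequence, so genes were not ranked by level, and medians over gene lists, which mix different probes, are given as descriptions only. Precision is limited by the number of arrays. SEs are from limma, which draws each probe set's variance toward a common value. The level was taken as fixed, so p-values and SEs leave out its own uncertainty. It ran from 5.44 to 10.57 over the settings tried.

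All 13 measured ciliated cell markers were above background in the sorted cells, beside 54.0% of all genes. Foxj1 was at 12.82 ± 0.08 and Tppp3 at 14.31 ± 0.06 (SD, n = 5 arrays). Markers of other lung cells were above background too, for 9 of 9 alveolar type 2, 10 of 10 endothelial, 9 of 10 alveolar type 1, 9 of 10 mesenchymal, 7 of 9 club cell, 5 of 10 white blood cell, 3 of 6 neuroendocrine, 2 of 6 basal and 0 of 7 red blood cell genes. Calls above background therefore do not by themselves identify the sorted cells as ciliated. Sftpc, a surfactant gene, was at 14.06 ± 0.27 and Pecam1, an endothelial adhesion gene, at 10.83 ± 0.44. Of the white blood cell genes, Ptprc at 7.33 ± 0.58 and Cd68 at 8.36 ± 0.26 were not called, whereas Csf1r at 11.53 ± 0.35 and Laptm5 at 11.24 ± 0.51 were; the latter pair was named after the values were seen. In such a bulk sample fewer cells of a type and less RNA per cell cannot be told apart.

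Of the 10 E2F and DP genes, 9 were above background, and E2f2 was not. Among all genes tested, 54.0% were above background. E2f4 and E2f5 were both called, as were E2f1, E2f3, E2f7 and E2f8 of the 5 cell cycle genes, E2f6, Tfdp1 and Tfdp2. The median difference from the background level was 1.02 for E2f4 and E2f5, 1.15 for the cell cycle genes and 3.57 for the DP genes, beside 0.66 over all genes. These medians come from different probes, and no order of the classes was read from them. Counted by probe set, 11 of 21 were called, beside 36.4% of all probe sets. The difference in share between E2f4 with E2f5 (2 of 2) and the cell cycle genes (4 of 5) was not tested, since it rests on E2f2 alone. The count of 9 genes did not change when any 1 replicate was left out. It was 4 with the background taken from the tissue-restricted genes alone (level 10.10), beside 33.9% of all genes. At the 99th percentile (10.57) it was 3, beside 27%, and with the receptor genes alone (5.44) it was 10, beside 77.3%.

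**Figure D1:**
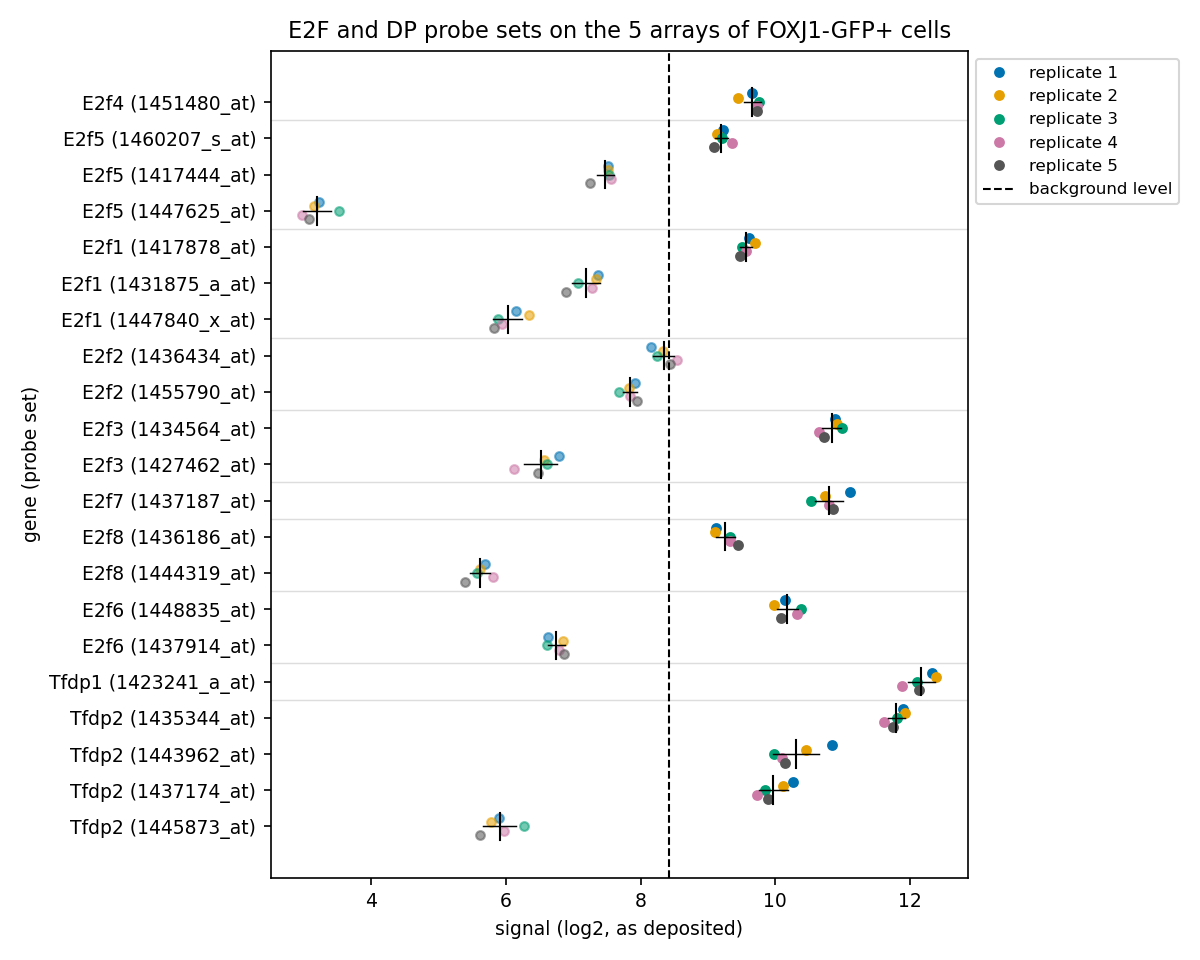
Signal (log2, as deposited) of all 21 E2F and DP probe sets on the 5 arrays, on the horizontal axis, with 1 row per probe set. Each point is 1 array, the vertical tick the mean, the horizontal bar 1 SD to each side and the dashed line the background level of 8.42. Pale points mark probe sets that were not called, and the best probe set of E2f2 is the one that straddles the line.

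E2f4, a factor of pocket protein complexes and of multiciliogenesis, has 1 probe set of its own and lies at chr8:105297663-105305370 (GRCm38.p6, as are all positions here). Its values were 9.65, 9.44, 9.76, 9.73 and 9.73 in replicates 1 to 5. Replicate 2 was the lowest, and the other 4 arrays lay within 9.65 to 9.76. The mean was 9.66 ± 0.13 (SD, n = 5 arrays), 1.24 above background (SE 0.07, adjusted p = 6.59e-07, limma). With the background from the tissue-restricted genes alone it lay below the level (-0.44), and likewise at the 99th percentile (-0.90).

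E2f5, which acts beside E2f4, lies at chr3:14578602-14606309 and has 3 probe sets. On the probe set with the highest mean its values were 9.22, 9.13, 9.21, 9.35 and 9.10 in replicates 1 to 5, all above background. The mean was 9.20 ± 0.10 (SD, n = 5 arrays), 0.79 above background (SE 0.06, adjusted p = 7.81e-06, limma). The second probe set had a mean of 7.48 ± 0.13 and the third 3.19 ± 0.21, and neither was above background on any array. The call for E2f5 thus held for 1 of its 3 probe sets, whose name carries a suffix for possible shared targets. With all 3 averaged, E2f5 lay below the background of that setting (-1.35), and with probe sets of that kind left out it lay 0.34 above a lower level of 7.13 (adjusted p = 0.00164, limma).

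Among the activators of S phase, E2f1 and E2f3 were above background and E2f2 was near the level. E2f1 lies at chr2:154559400-154569892. Its best probe set read 9.61, 9.70, 9.50, 9.56 and 9.48 in replicates 1 to 5, a narrow range in which every array was above background. The mean of 9.57 ± 0.09 (SD, n = 5 arrays) was 1.15 above the level (adjusted p = 5.17e-07, limma). It lay below the level with the tissue-restricted background (-0.53), at the 99th percentile (-0.996) and with its probe sets averaged (-0.38). The other 2 probe sets of E2f1 had means of 7.19 and 6.03 and were not called. All 3 E2f1 probe sets read lowest in replicate 5, at 9.48, 6.89 and 5.82.

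E2f3, at chr13:29906575-29986064, read 10.90, 10.91, 10.99, 10.66 and 10.73 in replicates 1 to 5, with all arrays above background. Its mean was 10.84 ± 0.14 (SD, n = 5 arrays), 2.42 above the level (adjusted p = 1.17e-08, limma). A second probe set had a mean of 6.51 ± 0.25 and was not called, and both probe sets read lowest in replicate 4.

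E2f2, at chr4:136172274-136196057, read 8.15, 8.34, 8.24, 8.53 and 8.44 in replicates 1 to 5, so that replicates 4 and 5 lay above the background level and the other 3 below it. Its mean of 8.34 ± 0.15 (SD, n = 5 arrays) was not above the level (difference -0.075, SE 0.075, adjusted p = 1, limma). The second E2f2 probe set, at 7.84 ± 0.10, was below the level on every array. Under a level of 7.13, 6.98 or 5.44, given by leaving out suffixed probe sets, by the 90th percentile or by the receptor genes, E2f2 was called, so no statement of presence or absence was drawn from it.

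The atypical repressors E2f7 and E2f8 were both above background. E2f7, at chr10:110745439-110787384, read 11.11, 10.75, 10.53, 10.79 and 10.85 in replicates 1 to 5 on its 1 probe set, highest in replicate 1 and lowest in replicate 3. The mean was 10.81 ± 0.21 (SD, n = 5 arrays), 2.39 above background (adjusted p = 4.66e-08, limma). E2f8, at chr7:48866429-48882073, read 9.12, 9.10, 9.33, 9.32 and 9.44, lower in replicates 1 and 2 than in the other 3. Its mean was 9.26 ± 0.15, 0.85 above background (adjusted p = 1.20e-05, limma), and a second probe set at 5.61 ± 0.15 was not called. E2f8 lay below the level with the tissue-restricted background (-0.84), at the 99th percentile (-1.30) and with its probe sets averaged (-0.54), and E2f7 was not called at the 99th percentile (0.24, adjusted p = 0.088, limma).

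E2f6, a repressor that binds DNA within a Polycomb complex, lies at chr12:16810909-16826752. Its best probe set read 10.14, 9.98, 10.38, 10.32 and 10.09 in replicates 1 to 5, lowest in replicate 2 and highest in replicate 3. The mean was 10.18 ± 0.16 (SD, n = 5 arrays), 1.77 above background (adjusted p = 1.32e-07, limma), while the second probe set, at 6.75 ± 0.12, was not called. The call was lost with the tissue-restricted background (0.08 over the level, adjusted p = 0.731, limma) and at the 99th percentile (-0.38). Of 8 listed Polycomb partners of E2F6, which need not share 1 complex, 7 were measured. All 7 were above background, beside 54.0% of all genes. They were L3mbtl2 at 12.31 ± 0.08, Mga at 11.77 ± 0.06, Pcgf6 at 10.68 ± 0.09, Max at 11.06 ± 0.09, Ring1 at 10.48 ± 0.18, Rnf2 at 11.61 ± 0.14 and Epc1 at 12.82 ± 0.09.

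Both DP genes were above background on every array. Tfdp1, which encodes DP1, lies at chr8:13338725-13378448 and read 12.33, 12.39, 12.12, 11.89 and 12.14 in replicates 1 to 5 on its 1 probe set. Its mean was 12.17 ± 0.20 (SD, n = 5 arrays), 3.76 above background (adjusted p = 2.82e-09, limma). Tfdp2, at chr9:96196246-96323646, encodes DP2 and has 4 probe sets, of which 3 were called. The brightest read 11.89, 11.94, 11.81, 11.62 and 11.75, with a mean of 11.80 ± 0.13, 3.38 above background (adjusted p = 1.58e-09, limma).

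The other called Tfdp2 probe sets had means of 10.31 ± 0.35 and 9.97 ± 0.22, and the last, at 5.91 ± 0.24, was not called. Replicates 1 and 2 were the 2 highest arrays for Tfdp1 and for each of the 3 called Tfdp2 probe sets. Replicate 4 was the lowest for Tfdp1 and for 2 of those 3. Of the 7 members with several probe sets, 6 had at least 1 that was called and 1 that was not, the exception being E2f2. With a gene's probe sets averaged in place of the brightest, 6 of the 10 genes were above background, beside 46.3% of all genes. E2f1 (-0.38) and E2f8 (-0.54) lay below the level of that setting as E2f5 did.

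The promoter windows of RefSeq (GRCm38.p6, 250 bases before to 50 after a gene's start) were searched for the core E2F site, since genes of the E2F family are known targets of E2F itself. The 4 words TTTCCCGC, TTTGGCGC, TTTGCCGC and TTTCGCGC were searched on both strands. Of all 32851 windows, 2.26% held at least 1 of them, and of 27025 genes with a window 2.60% did. Windows were found for 8 members, all but E2f4 and E2f5. Of these, 4 held a word, E2f2, E2f3, E2f7 and Tfdp1, so that 3 of the 5 cell cycle genes did. The stretches around these words are shown because they hold the matches behind this count, 3 different words in 4 genes, with the word in capitals as it reads on the gene's strand.
E2f3, chr13:29986065-29986164, minus strand: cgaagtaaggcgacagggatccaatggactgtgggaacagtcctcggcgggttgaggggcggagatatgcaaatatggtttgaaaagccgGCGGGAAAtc
E2f7, chr10:110745195-110745294, plus strand: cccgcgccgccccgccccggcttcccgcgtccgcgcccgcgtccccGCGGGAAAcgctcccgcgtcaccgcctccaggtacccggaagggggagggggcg
Tfdp1, chr8:13338650-13338749, plus strand: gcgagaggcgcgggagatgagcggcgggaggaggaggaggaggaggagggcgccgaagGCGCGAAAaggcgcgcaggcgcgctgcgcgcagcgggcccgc
E2f2, chr4:136172294-136172323, plus strand: cgaatttggcggcatatagTTTGGCGCtaa

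In E2f3 and E2f7 the word is the reverse complement of TTTCCCGC, and in Tfdp1 that of TTTCGCGC. In E2f2 it lies just after the start of the gene and reads forward. The same words were found in 8 of 18 S phase targets with a window, among them Mcm3, Cdc6 and Pola1, in 1 of 16 genes of G2 and M phase and in 1 of 19 genes of multiciliogenesis. The latter genes, Cdk1 and Cep63, are named here after the search was seen. A match describes the letters in this window and not binding. Base composition differs between promoters, and its part in these counts was not tested.

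The spread between arrays was set side by side for E2f4 with E2f5 and for the cell cycle genes. The median SD was 0.11 for E2f4 and E2f5 and 0.15 for the 5 cell cycle genes. Over all 18193 genes it was 0.17, and over those called above background 0.145. The difference between both classes, 0.03 on the log2 scale, was not tested. It was 0.0085 without replicate 1 and 0.076 without replicate 2. The cell cycle genes ran from 0.09 for E2f1 to 0.21 for E2f7.

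The cell cycle genes deviated in different directions on the same array. Relative to its own mean, E2f7 was at 0.30 in replicate 1 and -0.28 in replicate 3. E2f8 was at -0.15 and 0.06 in the same arrays, and E2f3 at 0.06 and 0.15. In the mean over the 5 genes these opposite deviations cancelled, and it ranged over 0.07 between arrays. The mean of E2f4 and E2f5 ranged over 0.25, from -0.15 in replicate 2 to 0.11 in replicate 4. A mean over fewer genes tends to vary more, so no difference was read from these ranges. Gene by gene, the median range was 0.34 for the cell cycle genes and 0.29 for E2f4 and E2f5. On each array, the mean deviation of E2f4 and E2f5 minus that of the cell cycle genes was -0.0086, -0.14, 0.099, 0.097 and -0.045 in replicates 1 to 5. No correlation was taken over 5 arrays.

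**Figure D2:**
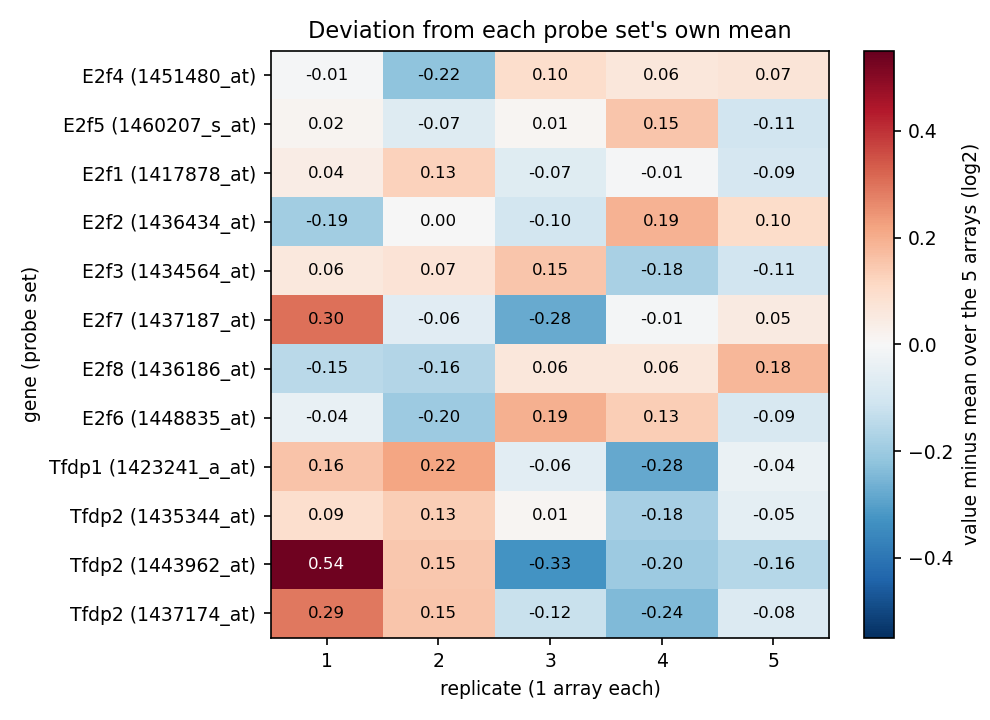
Deviation of each probe set from its own mean over the 5 arrays (log2), with probe sets in rows and replicates in columns. Shown are the 11 probe sets above background and the best one of E2f2; red is above and blue below the mean. E2f4, E2f6 and E2f8 read lowest in replicate 2, E2f5 in replicate 5, and Tfdp1 and Tfdp2 read high in replicates 1 and 2.

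The mean deviation of Tfdp1 and Tfdp2 was 0.13, 0.18, -0.02, -0.23 and -0.05 in replicates 1 to 5. That of the 3 pocket protein genes was 0.24, 0.09, -0.16, -0.17 and -0.0078. The means of both lists were thus higher in replicates 1 and 2 than in the other 3. In replicate 2, Rb1 read 10.95, under its own mean of 10.99, while Rbl1 and Rbl2 read above theirs. For 17 measured genes of multiciliogenesis the mean deviation was -0.03, -0.13, 0.12, 0.03 and 0.0025, lowest in replicate 2. Of the best probe sets of the members, those of E2f4, E2f6 and the cell cycle gene E2f8 were also lowest there, whereas that of E2f5 was lowest in replicate 5. Genes of S phase were lowest in replicate 1 (-0.11), as were those of G2 and M phase (-0.12).

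Some markers of other cells moved more than these lists and some did not. Alveolar type 2 genes ranged over 1.36, from -0.67 in replicate 1 to 0.69 in replicate 5, and their array means ran from 11.04 to 12.39. Endothelial genes ranged over 0.95, from -0.52 in replicate 1 to 0.43 in replicate 3, and white blood cell genes over 0.77, from -0.46 in replicate 1 to 0.31 in replicate 5. Club cell genes ranged over 0.60 and mesenchymal genes over 0.42. Alveolar type 1 (0.40), basal (0.39), red blood cell (0.29), neuroendocrine (0.29) and ciliated cell markers (0.13) ranged over less than the pocket proteins and the DP genes, both at 0.41. The latter lists hold 3 and 2 genes, and a mean over fewer genes tends to vary more. In replicate 1, where alveolar type 2, endothelial and white blood cell markers were low, E2f7 (0.30) and the DP genes (0.13) read high. E2f2 (-0.19) and E2f8 (-0.15) read low there, and the other members lay from -0.04 to 0.06. The DP genes were highest in replicate 2 (0.18). Endothelial (0.24) and alveolar type 2 markers (0.06) were above their means there and white blood cell markers (-0.18) below. The part of other cells in the E2F and DP signal was not tested.

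**Figure D3:**
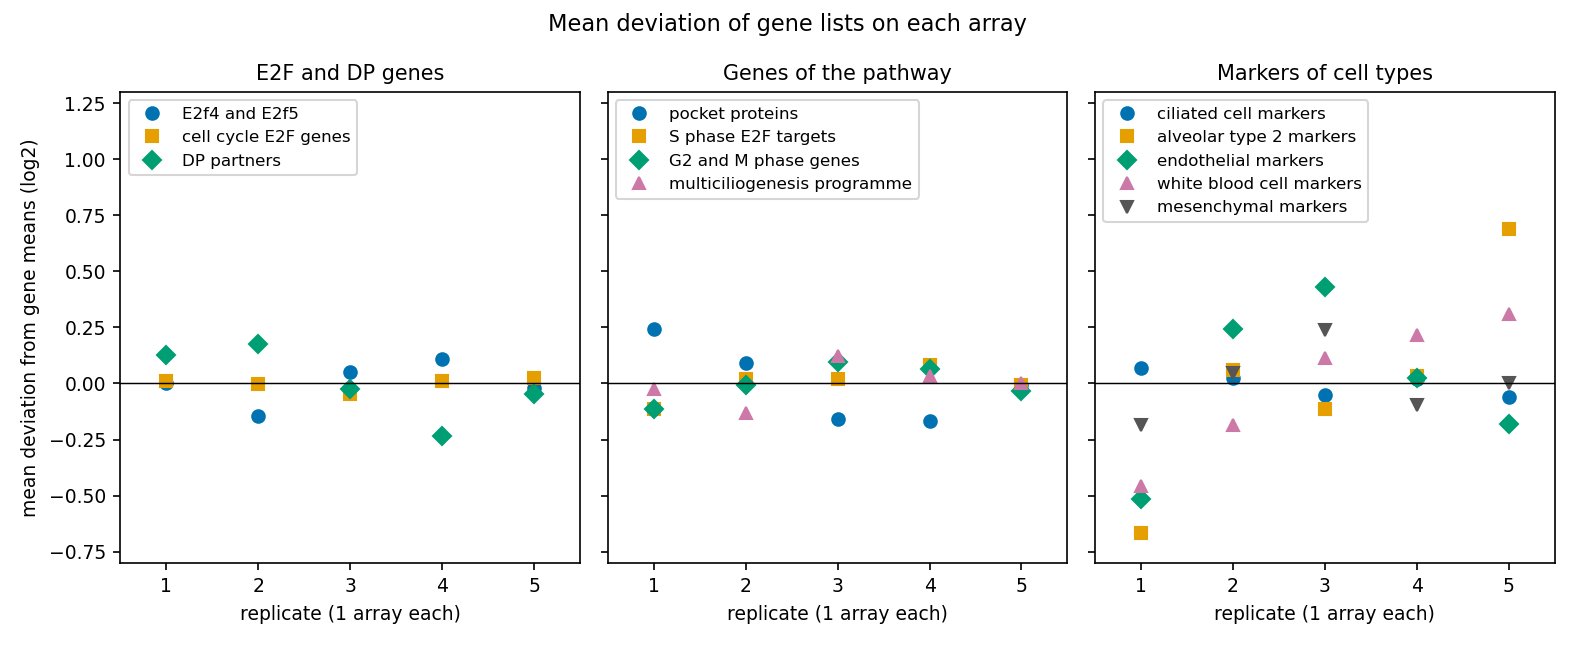
Deviation from each gene's mean, averaged over a gene list (vertical axis, log2), for replicates 1 to 5 (horizontal axis). Each symbol is 1 list on 1 array, with members on the left, other genes of the pathway in the middle and cell type markers on the right. The mean of the cell cycle E2F genes spans 0.07 and that of the alveolar type 2 markers 1.36. The lists differ in their number of genes, and a mean over fewer genes tends to vary more.

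The 3 pocket protein genes were all above background, beside 54.0% of all genes. Only 1 of 3 was with the tissue-restricted background (33.9% of all genes), at the 99th percentile (27%) or with probe sets averaged (46.3%). Rb1, which encodes the retinoblastoma protein, was at 10.99 ± 0.08 (SD, n = 5 arrays), Rbl1, which encodes p107, at 10.30 ± 0.24 and Rbl2, which encodes p130, at 10.15 ± 0.27. Of the MuvB core, which joins E2F4 and p130 in resting cells and MYB proteins in dividing ones, Rbbp4 at 13.60 ± 0.04, Lin37 at 11.32 ± 0.15, Lin54 at 9.72 ± 0.07 and Lin9 at 9.36 ± 0.14 were called. Lin52 at 7.20 ± 0.53, Mybl2, the MYB partner of dividing cells, at 7.72 ± 0.21 and Mybl1 at 7.25 ± 0.30 were not. In all 4 of these 7 genes were above background, near the 54.0% of all genes, and 2 were with the tissue-restricted background, beside 33.9%.

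Upstream of the pocket proteins, 7 of 8 cyclins and kinases of G1 were above background, beside 54.0% of all genes. Ccnd1, Ccnd2 and Ccnd3, the D cyclins, were at 12.44 ± 0.13, 12.74 ± 0.20 and 10.93 ± 0.31, and their kinases Cdk4 and Cdk6 at 13.20 ± 0.11 and 9.71 ± 0.13 (SD, n = 5 arrays). Cdk2, the kinase of cyclin E, was at 9.32 ± 0.18. Ccne1 was close to the level, 0.28 over it (adjusted p = 0.00266, limma), and Ccne2, at 8.05 ± 0.11, was not called. Both are cyclins of the step into S phase and known E2F targets. Of the inhibitors of these kinases 5 of 7 were above background, with Cdkn1a, which encodes p21, at 12.43 ± 0.15, Cdkn1b, which encodes p27, at 11.45 ± 0.12 and Cdkn1c, which encodes p57, at 12.80 ± 0.24. Cdkn2d, at 9.51 ± 0.18, and Cdkn2c, 0.29 over the level (adjusted p = 0.0254, limma), were called as well. Cdkn2c lay below the level in replicate 4 (8.39), and the count of inhibitors was 4 where all 5 arrays had to exceed the level and without replicate 3 or 5. With the tissue-restricted background 4 of the 8 cyclins and kinases and 3 of the 7 inhibitors were called, beside 33.9% of all genes. Cdkn2a at 5.07 ± 0.14 and Cdkn2b at 8.35 ± 0.17 were not called at the main level.

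Downstream, 16 of 20 measured S phase targets of E2F were above background, beside 54.0% of all genes. Pcna, the sliding clamp of DNA synthesis, was at 12.39 ± 0.14 (SD, n = 5 arrays), and the helicase genes Mcm2, Mcm3 and Mcm4 were at 9.10 ± 0.21, 9.62 ± 0.35 and 10.40 ± 0.10. Cdc6 at 7.46 ± 0.15, which loads that helicase, Cdc45 at 8.18 ± 0.18, Tyms at 6.20 ± 0.20 and Pola1 at 8.44 ± 0.25 were not called. Of the genes of G2 and M phase 18 of 19 were above background, among them Mki67 at 11.32 ± 0.35, Top2a at 12.00 ± 0.05 and Ccna2 at 10.51 ± 0.21. Foxm1, a transcription factor of that phase, at 7.99 ± 0.24 was not. With background set by the tissue-restricted genes alone these counts were 9 of 20 and 11 of 19, beside 33.9% of all genes. With the receptor genes alone they were 20 of 20 and 19 of 19, beside 77.3%. No absence was therefore read from the genes not called.

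All 17 measured genes of the multiciliogenesis programme were above background, beside 54.0% of all genes. Besides factors of ciliated cells the list holds genes of centriole assembly, which dividing cells use too. The count is therefore not specific to ciliated cells. With background set by the tissue-restricted genes alone 16 still were, beside 33.9%. Foxj1 and Myb, transcription factors of ciliated cells, were at 12.82 ± 0.08 and 13.77 ± 0.06 (SD, n = 5 arrays). Gmnc and Mcidas, which encode GemC1 and Multicilin, were not analysed here. Genes of the multiciliogenesis, S phase and G2 and M phase lists were above background in the same sorts. Whether their signal came from the same cells was not tested.

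By the median difference from background, these lists stood at 1.88 for pocket proteins, 0.94 for MuvB and MYB partners, 1.90 for G1 cyclins and kinases and 1.10 for their inhibitors, beside the 0.66 of all genes. The median was 3.19 for the Polycomb partners, 1.79 for S phase targets, 2.09 for G2 and M phase genes and 3.58 for multiciliogenesis. These are descriptions, and no list was tested against other genes.

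**Figure D4:**
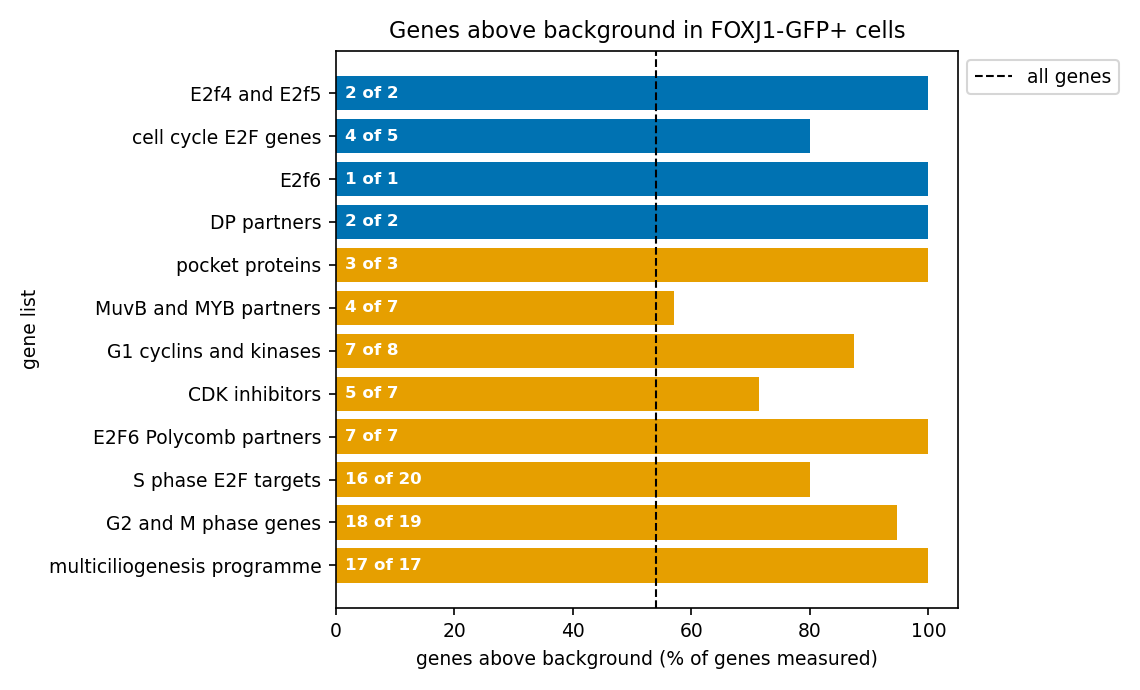
Share of measured genes above background (horizontal axis, %) in each gene list, with the counts inside the bars. Blue bars are E2F and DP genes by role, orange bars other genes of the pathway, and the dashed line the share of all genes, 54.0%. The lists reach from 4 of 7 genes for MuvB and MYB partners to 17 of 17 for the multiciliogenesis programme.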

How the data were processed

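The authors amplified and biotin-labelled the RNA, hybridised it to Affymetrix mouse arrays and used Bioconductor in R. The authors deposited a table of normalized log2 signals with a column for every array. How they were normalized is not stated in the sources used here, and the scale was taken from the range of values (2.37 to 15.24). Pearson's r between arrays, across probe sets, was 0.987 to 0.994, and no missing value was found. Samples were grouped by their titles.

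After 64 control probe sets were left out, 34945 of 45037 carried 1 gene in the platform annotation, and the 932 with several genes were not named. Identifiers of 99.42% of the former were in the GRCm38.p6 gene table, with 0 changed symbols. Levels were tested with lmFit and eBayes of limma 3.58.1 (R 4.3.3), tested on simulated data. Python 3.11.15, numpy 2.4.6 and pandas 2.3.3 were used otherwise. Members, lists and background genes were chosen with earlier results of these data known. All members were named. Genes of the 5 shorter pathway lists could be named, as could the first 4 of the S phase, G2 and M phase and multiciliogenesis lists, up to 5 whose call went against most of their list, and the first 2 of each cell type list. Alternatives changed the background genes and percentile, the normalization, the test, the filter on dim probe sets, the summary per gene and the replicates used. Scanner files were not used here, so background correction and scan batch were not varied.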

Additional observations from a re-analysis of the deposited data

Results flagged for a closer look

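Of 88 sets of 5 arrays checked for an array that stands apart (by Dixon's ratio of gap to range, above 0.71), 3 did so, and chance alone flags about 1 in 20. The second probe set of E2f5, which was not above background, read 7.25 in replicate 5 and 7.51 to 7.56 in the other 4 (ratio 0.841). Cdk6, a kinase that acts on pocket proteins, read 9.48 in replicate 5 and 9.74 to 9.79 elsewhere (ratio 0.826). Cdkn1b, which encodes p27, read 11.65 in replicate 3 and 11.37 to 11.45 elsewhere (ratio 0.723).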

How the results depend on the processing

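The calls kept their direction under quantile normalization, median centring, a call on all 5 arrays, a trended prior and the filter on dim probe sets, for the counts of E2F and DP genes and of every list named, within a factor of 1.5. They depend on the background level, since the members lie between 8.34 and 12.17. Of all genes, 27% were called at the 99th percentile and 33.9% with the tissue-restricted background. At the 90th percentile 65.6% were, and with the receptor background 77.3%. With probe sets averaged the share was 46.3%, and without suffixed probe sets 60.7%. Shares over all probe sets were not taken at these settings, so the counts of member probe sets below stand without one. At the 99th percentile, 3 member probe sets, 3 member genes, 0 of E2f4 and E2f5, 1 cell cycle E2F gene and 0 for E2f6 were called. The differences from that level were -0.996 for E2f1, -0.90 for E2f4, -1.36 for E2f5, -0.38 for E2f6, 0.24 for E2f7 (adjusted p = 0.088, limma) and -1.30 for E2f8. Called there were 1 pocket protein, 2 MuvB and MYB, 3 G1, 3 inhibitor, 7 S phase, 8 G2 and M phase, 5 alveolar type 2, 5 endothelial, 5 mesenchymal, 2 white blood cell, 1 basal and 0 neuroendocrine genes. With the tissue-restricted background, 4 member probe sets, 4 member genes, 0 of E2f4 and E2f5, 2 cell cycle genes and 0 for E2f6 were called. The differences were -0.53 for E2f1, -0.44 for E2f4, -0.90 for E2f5, 0.08 for E2f6 and -0.84 for E2f8. Called there were 1 pocket protein, 2 MuvB and MYB, 4 G1, 3 inhibitor, 9 S phase, 11 G2 and M phase, 2 white blood cell, 1 basal and 1 neuroendocrine genes. With the receptor background, 20 member probe sets, 20 S phase, 19 G2 and M phase and 7 MuvB and MYB genes were called. So were 9 white blood cell, 3 red blood cell, 5 basal and 6 neuroendocrine genes, and E2f2 lay 2.90 above the level. At the 90th percentile, an alternative chosen after seeing the data, E2f2 lay 1.36 above it, and 1 red blood cell and 6 neuroendocrine genes were called. With probe sets averaged, 1 pocket protein, 1 red blood cell gene, 1 of E2f4 and E2f5 and 2 cell cycle genes were called, with E2f1 at -0.38, E2f5 at -1.35 and E2f8 at -0.54. Without suffixed probe sets, E2f2 lay 1.21 above the level and 6 neuroendocrine genes were called. Only 1 DP gene was, since the 1 probe set of Tfdp1 has a suffix. Leaving out single replicates kept 9 member genes and 11 member probe sets each time. No paired analysis was possible because there is 1 group.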
